A study of Mus musculus with 5 samples.

Results

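The genes described here are those of vesicle trafficking and protein sorting, chosen by gene symbol: Rab followed by a digit, Arf followed by a digit, Arl, Arfgap, Vps, Snx, Sec followed by a digit, Sar1, Cop with the signalosome Cops genes left out, Tmed, Trappc, Exoc, Ap1, Ap2, Ap3 and Clt. Every Rab3 name was left out, which also removed 4 spots of Rab30 to Rab39. The rule found 157 spots of 118 genes among 17328 spots on the array, of which 7722 carry a single gene symbol. Retina of mice with mutant Rb, the gene of the retinoblastoma protein, was compared with wild-type retina on 5 spotted arrays read in 2 colours. By the series title the tissue was explanted, so it was cultured outside the animal. On each array channel 1 held wild-type total RNA and channel 2 total RNA labelled "mutant mice (Rb-)", so every array is a direct comparison of the same 2 genotypes. The sources used here do not give the allele, strain, age or days in culture, nor whether each array had its own animals. All p-values therefore reflect the spread from array to array alone, which may be technical. All values are log2 ratios of the channels as deposited, centred on the median of each array. Which RNA stands in the numerator is not settled, so signs follow the deposited values, and a positive or negative ratio is not read as higher or lower in the mutant.

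A cell moves proteins between its compartments in coated vesicles. COPII coats, built on the GTPase Sar1, carry cargo out of the endoplasmic reticulum, COPI coats bring it back, and clathrin with its adaptor complexes buds vesicles from the Golgi, endosomes and plasma membrane. Rab GTPases mark each compartment and recruit tethers such as TRAPP and the exocyst, while retromer, sorting nexins and the ESCRT machinery decide whether a protein on an endosome is recycled or degraded. Photoreceptors depend heavily on this traffic, since they renew the membrane of the outer segment throughout life and sort rhodopsin and lipid-anchored proteins to a modified cilium.

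Promoters of 4 members, picked after their values were seen, are shown. Vps26a and Vps26b are alternative subunits of retromer whose mean ratios lay on opposite sides. Ap3b2 and Ap3d1 are large subunits of the adaptor AP-3, whose probes all had negative means, as did 65.8% of single-symbol probes. Each run is 300 bases, from 250 before to 50 after a RefSeq start on build GRCm38.p6, read 5′ to 3′ on the gene's strand. Capitals mark CACGTG, the E-box core bound by lysosomal regulators such as TFEB. Vps26a has another listed start, which overlaps this one.
Vps26a, chr10:62486756-62487055, minus strand: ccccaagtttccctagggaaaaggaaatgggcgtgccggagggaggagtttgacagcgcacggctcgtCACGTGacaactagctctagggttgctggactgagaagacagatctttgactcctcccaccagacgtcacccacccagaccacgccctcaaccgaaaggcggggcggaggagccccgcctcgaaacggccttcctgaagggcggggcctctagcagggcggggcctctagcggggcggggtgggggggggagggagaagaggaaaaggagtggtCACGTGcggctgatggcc
Vps26b, chr9:27030045-27030344, minus strand: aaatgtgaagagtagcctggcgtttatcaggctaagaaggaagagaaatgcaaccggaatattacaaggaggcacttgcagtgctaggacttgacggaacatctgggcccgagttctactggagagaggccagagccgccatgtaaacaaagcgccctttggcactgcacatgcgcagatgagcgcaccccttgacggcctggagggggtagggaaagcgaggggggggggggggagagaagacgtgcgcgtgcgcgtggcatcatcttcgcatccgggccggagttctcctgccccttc
Ap3b2, chr7:81493876-81494175, minus strand: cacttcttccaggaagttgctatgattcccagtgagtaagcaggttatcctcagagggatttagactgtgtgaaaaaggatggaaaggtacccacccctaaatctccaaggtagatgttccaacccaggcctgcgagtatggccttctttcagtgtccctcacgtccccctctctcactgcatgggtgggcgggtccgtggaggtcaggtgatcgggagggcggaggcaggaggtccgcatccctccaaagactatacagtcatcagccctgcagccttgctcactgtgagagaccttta
Ap3d1, chr10:80742226-80742525, minus strand: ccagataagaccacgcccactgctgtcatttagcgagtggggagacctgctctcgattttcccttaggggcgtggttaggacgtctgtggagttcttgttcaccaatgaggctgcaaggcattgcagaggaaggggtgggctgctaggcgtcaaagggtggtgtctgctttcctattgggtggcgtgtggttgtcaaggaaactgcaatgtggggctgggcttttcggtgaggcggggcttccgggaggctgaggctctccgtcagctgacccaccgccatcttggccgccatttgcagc
The Vps26a promoter holds 2 copies of CACGTG, and no match was found in these windows of Vps26b, Ap3b2 and Ap3d1. Because Rb binds E2F transcription factors, E2F words were searched too: TTTCCCGC, TTTCGCGC, TTTGCCGC and TTTGGCGC, on both strands. Promoters were listed for 94 of the 118 genes. An E2F word stood in the promoter of 6 of these 94 genes (6.38%), against 2.61% of all 27025 genes with a promoter. The 6 genes were Rab5c, Vps41, Snx33, Sec14l2, Exoc3 and Arl3. The mean log2 ratios of the 4 that were tested ran both ways, at -0.47 for Rab5c, -0.37 for Sec14l2, -0.29 for Snx33 and 0.23 for Vps41. CACGTG stood in the promoter of 12 of the 94 genes (12.8%), among them Vps16, Vps33a and Rab24, against 8.09% of all genes. The background was every gene with a listed promoter, not only those on the array, and base composition was not matched. The differences in share were not tested. These matches describe letters in a window and no binding was measured.

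No trafficking probe passed the test. Of the 157 spots, 122 spots of 97 genes had a usable ratio on at least 4 of the 5 arrays and were tested with all other probes of the array in limma, a linear model that pools the variance over probes. Of 10036 probes tested, 0 passed at an adjusted p under 0.05 (0.0% of all probes), and the smallest adjusted p of a trafficking probe was 0.432. At an unadjusted p under 0.05 there were 11 trafficking probes, 10 of them with a negative mean and 1 with a positive one. Negative probes were thus 8.20% of the 122, against 6.18% of the 5822 tested probes with a single symbol and 5.9% of all probes. Positive ones were 0.820%, against 3.35% and 5.52%. Among the 101 trafficking probes measured on all 5 arrays, 19 were negative on every array (18.8%, against 12.8% of single-symbol probes) and 3 were positive on every array (2.97%, against 3.39%). In total 83 of the 122 probes had a negative mean (68.0%), against 65.8% of all single-symbol probes. The counts as a whole therefore lay close to the background of annotated probes. With centring on the probes present on every array, 74 of the 122 means were negative, and with no centring 109 were, since the median of all probes moved from -0.16 to 0.01 and to -0.62. When probes were simulated with the spread seen here, in the same number, changes of 1 log2 unit were recovered in 0% of cases, of 2 in 25.5% and of 4 in 79%.

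The trafficking genes followed the other annotated genes from array to array. Their median log2 ratio was -0.54, 0.00, -0.46, 0.08 and -0.24 on arrays 1 to 5, against -0.36, 0.01, -0.34, 0.07 and -0.22 for all single-symbol probes. The difference was thus largest on arrays 1 and 3, at -0.17 and -0.12, and within 0.02 of 0 on the others. Arrays 1 and 3 were also those on which the ratios of rod genes lay far down. The median of 29 rod probes (18 genes) was -3.50, 0.08, -3.62, -0.40 and -0.03 on arrays 1 to 5, and that of 17 probes of DNA replication genes was 1.50, -0.07, 1.74, 0.77 and -0.24. In RNA of whole retina, fewer cells of a type and less RNA per cell cannot be told apart, and the part of cell composition in the trafficking ratios was not tested. The median of 8 cone probes was -1.32, 0.34, -1.34, 0.41 and -0.49 on arrays 1 to 5, and the median mean of 9 probes of Muller glia genes was -0.11. Pigment epithelium had 3 tested probes with a median mean of -0.65, vessels 3 with -0.35, microglia 1 with 0.02 and blood 0. Single-colour levels were not used, so whether the labelled tissue expresses its markers could not be checked beyond a usable ratio for 18 of the 20 rod genes with a spot.

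**Figure D1:**
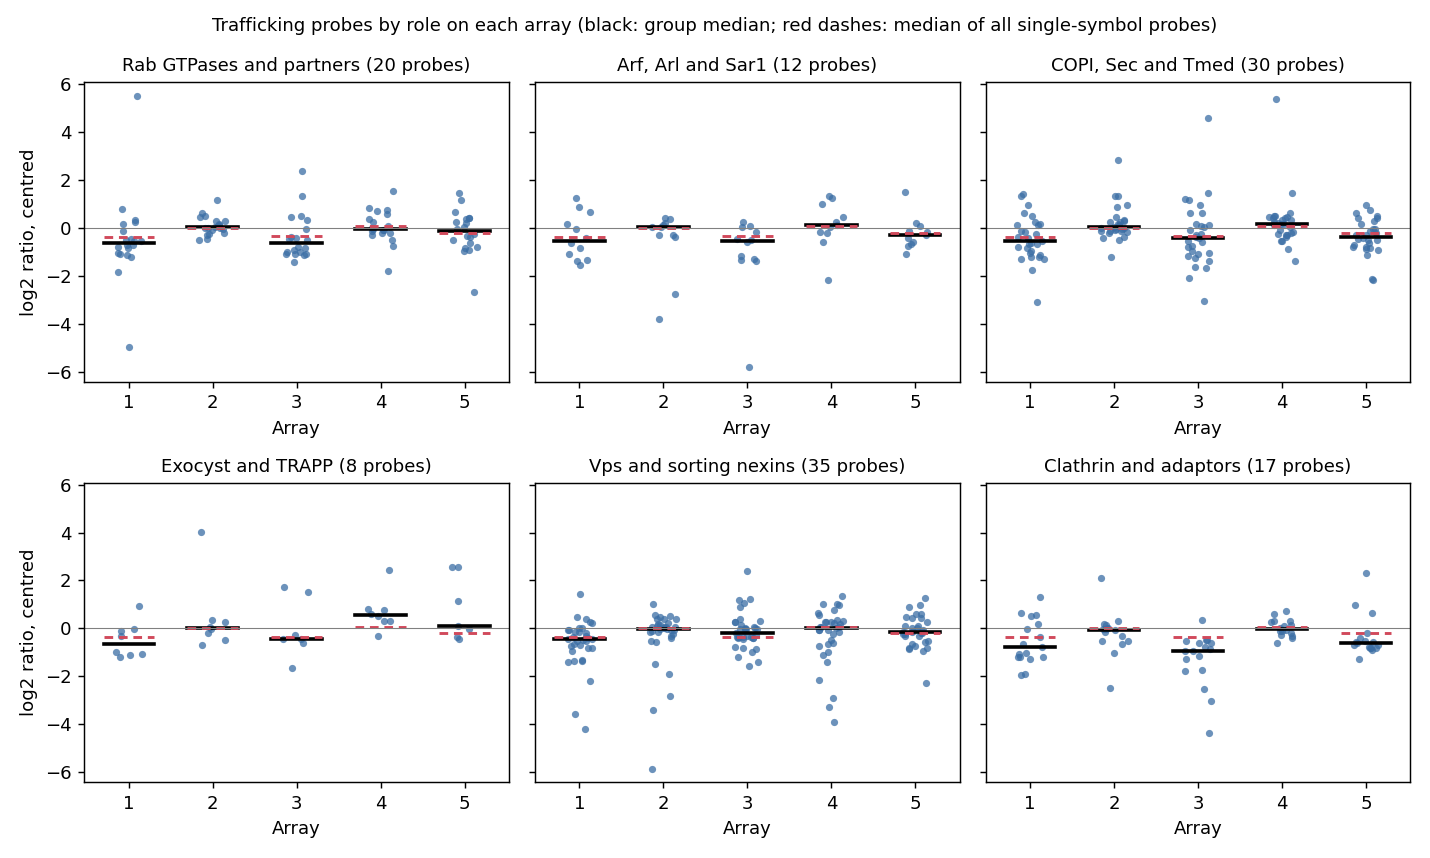
Centred log2 ratio (vertical) of the 122 trafficking probes on each of the 5 arrays (horizontal), in 6 panels by role; each point is a probe, the black bar is the group's median and the red dashes the median of all single-symbol probes. The black bars of clathrin and adaptors differ from the red dashes by -0.42, -0.59 and -0.39 on arrays 1, 3 and 5. Those of Rab GTPases and partners differ by -0.28 and -0.30 on arrays 1 and 3, and those of tethers by -0.29, 0.47 and 0.32 on arrays 1, 4 and 5.

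Single trafficking probes reached large ratios on single arrays. On array 1 they ran from -4.96 for Rab2b to 5.51 for Rab24, on array 2 from -5.86 for Vps13c to 4.03 for Exoc6b, and on array 3 from -5.82 for Arf4 to 4.60 for Sec24b. On array 4 the lowest was Vps37a at -3.93 and the highest Tmed7 at 5.37, and on array 5 the lowest was Rab28 at -2.68 and the highest Exoc6b at 2.57. The genes at the ends thus differed from array to array, except that Exoc6b was the highest on arrays 2 and 5. The share of trafficking ratios beyond 1 log2 unit was 35.3% on array 1 and 36.4% on array 3, but 14.5%, 15.5% and 12.9% on arrays 2, 4 and 5. For all single-symbol probes these shares were, in array order, 35.6%, 18.4%, 36.3%, 22.1% and 20.1%. The median SD between arrays was 0.61 for trafficking probes and 0.72 for all single-symbol probes. Correlations between arrays were taken across the 101 trafficking probes, which are not independent replicates and share the arrays. The Pearson correlation ran from -0.15 for arrays 1 and 2 to 0.46 for arrays 2 and 4, and was 0.32 for arrays 1 and 3. By ranks (Spearman) these pairs had -0.08, 0.30 and 0.45, so the pair of arrays that agreed best depended on the measure. For single-symbol probes the Pearson values of these pairs were -0.09, 0.36 and 0.41.

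Rab GTPases are the switches that give membranes their identity, and their group here also holds 2 probes of Rab11 partners. Of its 20 probes, 14 had a negative mean (70%, against 65.8% of single-symbol probes). An unadjusted p under 0.05 in limma was found for 2 (10%, against 9.53%), 1 on each side. Rab28, whose loss causes cone-rod dystrophy, read, as log2 ratios, -1.86, -0.49, -1.07, -0.11 and -2.68 on arrays 1 to 5. All 5 lay below 0, but the size varied widely, with a mean of -1.24 ± 1.04 (SD, n = 5, adjusted p = 0.432 in limma). The other Rab28 probe gave -0.54, 0.18, -1.02, 0.00 and 0.25, a mean of -0.22 ± 0.54, and so did not show the ratio of array 5. Rab8a, which directs carriers from the Golgi to the primary cilium, had 0.80, 0.29, 0.51, 0.76 and 0.67. It was the trafficking probe with an unadjusted p under 0.05 on the positive side, and its ratios were close to each other, with a mean of 0.60 ± 0.21 (SD, n = 5, adjusted p = 0.432 in limma). Its close relative Rab8b had a mean of 0.52 ± 0.61, with array 3 slightly below 0.

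Other Rabs lay on both sides of 0. Rab11b of the recycling endosome had -0.81, -0.03, -1.08, -0.50 and -0.23, and Rab1a, which acts between endoplasmic reticulum and Golgi, -0.85, -0.08, -0.49, -0.21 and -0.63. Neither crossed 0 on any array, and both were nearest to 0 on array 2. The pair of Rab14 probes had means of -0.51 ± 0.54 and -0.64 ± 0.51, Rab18 had -0.53 ± 0.52 and Rab5c of early endosomes -0.47 ± 0.50 (SD, n = 5 each). Rab7, the Rab of late endosomes and lysosomes, had -0.41 ± 0.94 and -0.29 ± 0.64 on its probes. The probes agreed in the mean but not by array, since on array 4 they read -1.80 and 0.72. Rab6a of the Golgi had -0.35 ± 0.18 on one probe, negative on every array, and 0.09 ± 0.36 on the other. Rab10, which serves exocytosis, had 0.29 ± 0.52. Rab24, linked to autophagy, had the highest mean of the trafficking probes measured on all arrays, with 5.51, -0.29, 2.38, 0.60 and 1.46. Array 1 stood well above the others and array 2 below 0, giving 1.93 ± 2.23 (SD, n = 5, adjusted p = 0.435 in limma).

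The Arf family recruits coats and includes the COPII GTPase Sar1, and was counted with 2 probes of Arl2bp, which binds Arl2. Of these 12 probes, 9 had a mean below 0 (75%, against 65.8% of single-symbol probes). An unadjusted p under 0.05 in limma was found for 0 (0%, against 9.53%). Arf4, which binds rhodopsin as it leaves the Golgi, had -0.05, 0.36, -0.50, -0.20 and -0.57 on the probe measured on all arrays, a mean of -0.19 ± 0.37. Its other probe had -0.65, 0.40, -5.82 and 1.34 on arrays 1 to 4, so array 3 decided its mean of -1.18 ± 3.20 (SD, n = 4). Both Sar1b probes ran alike, at -1.10, 0.03, -1.31, 0.05 and -0.74 for one and -1.36, 0.14, -1.18, 0.11 and -0.66 on the other. On both, arrays 1, 3 and 5 were negative and arrays 2 and 4 near 0, with means of -0.61 ± 0.63 and -0.59 ± 0.70 (SD, n = 5 each). The Sar1a probes differed from each other. One read 0.17, 0.22, 0.24, 0.99 and 0.19, a mean of 0.36 ± 0.35, and the other -1.55, -0.36, -1.33, 1.26 and -0.19, a mean of -0.43 ± 1.11. The latter was negative on arrays 1, 3 and 5, as the Sar1b probes were, and positive on array 4 alone. Arl2, which releases lipid-anchored cargo from its carrier proteins, had -0.65 ± 0.56 (n = 4) and -0.38 ± 1.47 (n = 5). Arl2bp, its binding partner, which is mutated in retinitis pigmentosa, had 0.88, -3.82, -0.17, -2.16 and -1.10 by its lower-numbered probe. The other read -1.37, 0.03, -0.58, -0.15 and -0.42. The first was lowest on arrays 2 and 4 and the second on array 1, with means of -1.27 ± 1.81 and -0.50 ± 0.54. Arf3 had 0.34 ± 0.83 (SD, n = 4).

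Genes of the early secretory path, coats among them, had a negative mean in 19 of 30 probes (63.3%). In limma 3 had an unadjusted p under 0.05 (10%), those of Sec14l1, Sec24b and Cope. Both shares were near the 65.8% and 9.53% of all single-symbol probes. These 30 include the translocon, the Tmed cargo receptors, Sec22 proteins and Sec14-like lipid-binding proteins, none of which are coats. Cope, a COPI subunit, had -0.97, -0.13, -1.07, -0.37 and -0.62 on arrays 1 to 5, and Copg1, another, had -0.78, -0.50, -0.77, -0.25 and -0.45. Both were below 0 on all arrays, Cope nearest to 0 on array 2 and Copg1 on array 4. Their means were -0.63 ± 0.39 and -0.55 ± 0.23 (SD, n = 5 each), with adjusted limma p of 0.435 and 0.436. The other Copg1 probe, on 4 arrays, had -0.11 ± 1.18. The other COPI subunits had smaller or more variable means, at -0.43 ± 0.60 for Copb1, -0.42 ± 0.75 for Copb2, -0.28 ± 0.45 for Copa and 0.01 ± 0.48 for Copz1. Over the 7 COPI probes the median minus that of single-symbol probes was -0.32, -0.06, -0.72, 0.06 and -0.21 on arrays 1 to 5.

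Of the COPII coat and the exit sites, Sec24b, a cargo adaptor, had -1.31, -0.14, -0.81, -0.53 and -0.78, all below 0, with a mean of -0.71 ± 0.43 (SD, n = 5, adjusted p = 0.432 in limma). Its other probe had -0.43, 0.03, 4.60, -1.40 and 0.96, so these probes disagreed on array 3 above all. Sec16a, the scaffold of exit sites, had -0.73 ± 0.73 on one probe and 0.60 ± 0.69 on the other. These had opposite signs on arrays 1, 3, 4 and 5. Sec31a of the outer coat had 1.01 ± 1.23 (n = 4), Sec24c -0.74 ± 1.44, Sec13 -0.37 ± 0.43 and Sec23a 0.01 ± 0.27 (SD, n = 5). Sec61a1, the channel of the translocon, had -0.38 ± 0.68, and Sec63 had -0.36 ± 1.68, with -3.11 on array 1 and 1.32 on array 2. The p24 cargo receptors lay on both sides, with -0.19 ± 0.56 and -0.14 ± 0.53 for the Tmed2 probes, 0.32 ± 0.43 and -0.27 ± 1.22 for those of Tmed10, and 0.76 ± 2.86 for Tmed7. Sec14l1, a lipid-binding protein, had -1.29, -0.18, -1.16, -0.89 and -0.50, all below 0, a mean of -0.80 ± 0.46 (SD, n = 5, adjusted p = 0.432 in limma). Its other probe was above 0 on 4 arrays and at -2.13 on array 5.

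Clathrin and its adaptors lay lowest of the 6 roles relative to the annotated background, taken as the mean of the differences by array. Of 17 probes, 15 had a negative mean (88.2%, against 65.8% of single-symbol probes). The count was 15 with arrays scaled to equal spread, 14 when centred on the probes of all 5 arrays and 14 of 15 after quantile normalization. The single-symbol median moved too, from -0.22 to -0.18, -0.05 and -0.21 in these settings. Below that median lay 13 of 17 probes in the fit used throughout, with that scaling and with that centring. After quantile normalization 12 of 15 did. The median minus that of all single-symbol probes was -0.42, -0.06, -0.59, -0.09 and -0.39 in array order. Averaged over the arrays this difference came to -0.31 ± 0.23 (SD, n = 5), against -0.06 ± 0.08 for all trafficking probes. Without arrays 1 and 3, an alternative added after the data were seen, the median of probe means was -0.07 from the background, against -0.23 with all arrays. By that median of probe means the Arf family lay about as low, at -0.25 with all arrays. Ap3b2, the neuronal beta subunit of AP-3, had -1.18, -0.16, -1.26, -0.28 and -0.91, all negative, with a mean of -0.76 ± 0.51 (SD, n = 5, adjusted p = 0.432 in limma). Its other probe had -1.19, 0.33, -1.79, -0.05 and -0.56, a mean of -0.65 ± 0.85. Both probes were thus lowest on arrays 1 and 3 and nearest to 0 on arrays 2 and 4.

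AP-3 sorts cargo from endosomes to lysosome-related organelles and, in neurons, to synaptic vesicles. Its 4 genes were grouped after their values were seen. All 7 AP-3 probes had a negative mean, from -0.79 to -0.32, where 65.8% of single-symbol probes did. All 7 were negative on each of arrays 1, 3 and 5, while 4 were on array 2 and 3 on array 4. Most single-symbol probes were negative on those arrays too, 3584 of 5545 on array 1, 3538 of 5562 on array 3 and 3470 of 5555 on array 5. The 7 means were negative under each scaling and centring tried, and 6 of the 7 were without arrays 1 and 3. On arrays 4 and 5 alone, which share a scanner focus position, 5 of the 7 were. The size depended on the arrays: the median of the AP-3 means minus that of single-symbol probes was -0.44 with all arrays, -0.12 without arrays 1 and 3 and -0.23 on arrays 4 and 5. Ap3d1, the delta subunit, had -0.65 ± 0.55 and -0.36 ± 0.64 on its probes, Ap3s2 had -0.51 ± 0.39 and -0.79 ± 1.08, and Ap3m2 had -0.32 ± 0.68 (SD, n = 5 each). Except for the Ap3b2 probe above, none had an unadjusted p under 0.05. Ap1b1, the beta subunit of the Golgi adaptor AP-1, had -1.89, -0.09, -3.05, -0.42 and -0.77. It was negative on every array and lowest on array 3, with a mean of -1.24 ± 1.22 (SD, n = 5, adjusted p = 0.432 in limma). AP-2, the adaptor of endocytosis, showed no common side. Its mu subunit Ap2m1 had -0.36 ± 0.27 on a probe below 0 on all arrays and 0.49 ± 2.07 (n = 4) on the other, and Ap2a2 had -1.38 ± 2.02 and 0.17 ± 0.66. The clathrin light chains Clta and Cltb had -0.62 ± 0.82 (n = 5) and -0.44 ± 0.80 (SD, n = 4).

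**Figure D2:**
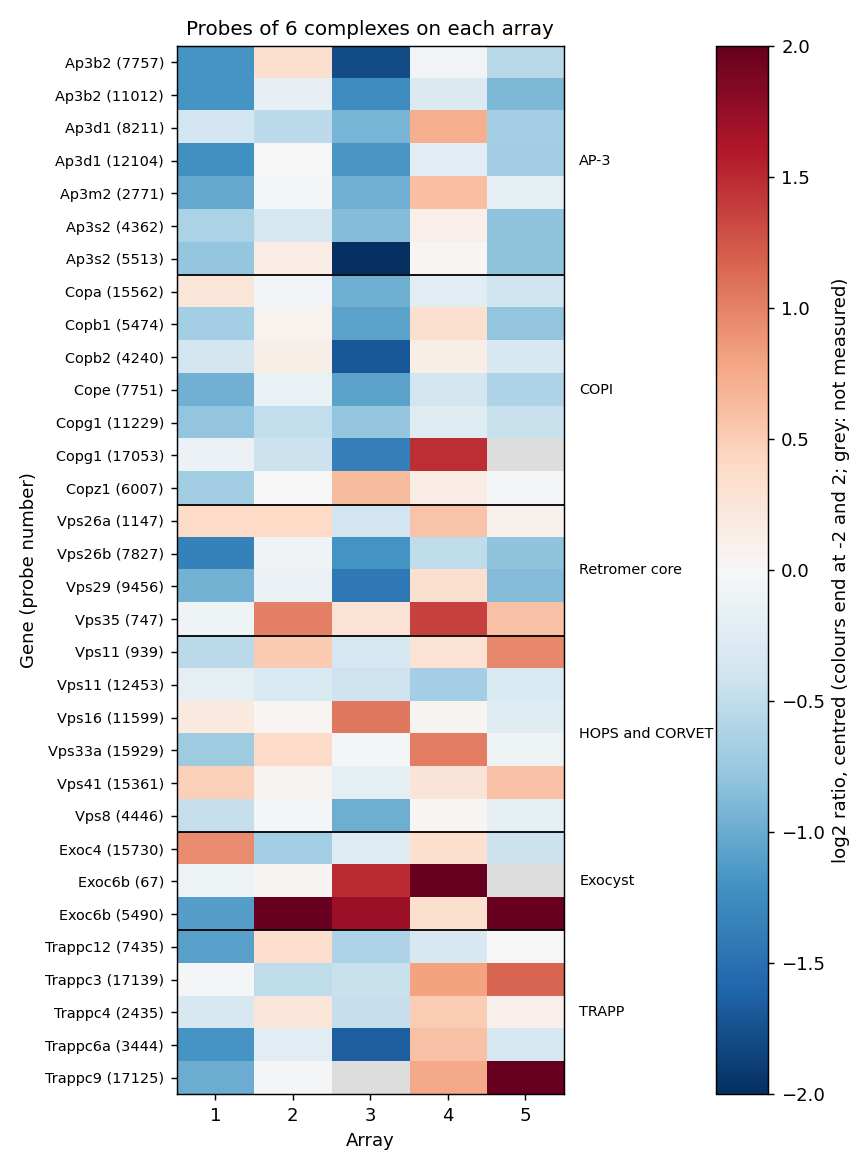
Centred log2 ratio, as colour, of each probe (rows, with gene and probe number) of 6 complexes on arrays 1 to 5 (columns); blue is negative, red positive, grey not measured, and colours end at -2 and 2. The 7 AP-3 rows are blue on arrays 1, 3 and 5, the measured TRAPP rows are blue on arrays 1 and 3, and the retromer and exocyst rows hold both colours on these arrays.

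Endosomal sorting genes had 23 of 35 negative means (65.7%, against 65.8% of single-symbol probes), and 4 probes had an unadjusted p under 0.05 (11.4%, against 9.53%), so they lay at the background. Subunits of one complex did not lie together in retromer, which retrieves receptors from endosomes. Vps26a had 0.39, 0.39, -0.38, 0.57 and 0.09 on arrays 1 to 5, and Vps26b, which takes the same place in the complex, had -1.36, -0.08, -1.20, -0.50 and -0.81. Vps26b was lower on every array, and Vps26a minus Vps26b had a mean of 1.00 ± 0.47 (SD, n = 5). With all 5 differences on the same side, the exact two-sided sign-flip permutation p could only be 0.0625, the smallest that 5 arrays allow. The pair was chosen after its values were seen, so this p does not test the difference. Vps35, the core of retromer, had -0.09, 1.00, 0.29, 1.36 and 0.59, a mean of 0.63 ± 0.57. Vps29 lay on the other side with -0.61 ± 0.70 (SD, n = 5). Each retromer subunit was read by a single tested probe, so a property of the spot and one of the gene cannot be told apart here.

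Vps52, a subunit of the GARP tether that receives endosomal carriers at the Golgi, had -0.54, -1.47, -0.87 and -0.98 on arrays 1 to 4. All were negative, with a mean of -0.96 ± 0.39 (SD, n = 4, adjusted p = 0.432 in limma), and this probe had the smallest unadjusted p of the trafficking probes. Its other probe had -0.17, -0.17, -0.83, -0.63 and -2.28, also negative throughout, a mean of -0.82 ± 0.87 (SD, n = 5). Vps52 was thus a gene with every ratio of both probes below 0. Vps54 of the same complex had 0.23 ± 0.49. Of ESCRT, which sorts receptors into vesicles inside the endosome, the ATPase Vps4b had -4.18, -0.59, -0.39, -2.91 and -0.16 and Vps37a had -1.37, -1.91, 0.02, -3.93 and 0.01. Vps4b was lowest on array 1 and Vps37a on array 4, with means of -1.65 ± 1.80 and -1.44 ± 1.63 (SD, n = 5 each), and of the pair Vps4b had an unadjusted p under 0.05 (adjusted p = 0.435 in limma).

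Sorting nexins, which bind endosomal membrane through a lipid-binding domain, had 11 of 13 means below 0 (84.6%, against 65.8%). Their median minus that of single-symbol probes was -0.06 ± 0.22 (SD over the 5 arrays), with array 3 at 0.30 and the others between -0.28 and -0.07. Snx32 had the lowest mean of the trafficking probes on all arrays, with -2.20, -3.41, 0.90, -3.26 and -0.81. Array 3 was above 0, against 4 negative arrays, and the mean was -1.75 ± 1.82 (SD, n = 5, adjusted p = 0.432 in limma). Snx1 and Snx2, partners of retromer, had -0.39 ± 0.30 (n = 5) and -1.19 ± 1.88 (n = 4), and Snx3 had -0.41 ± 0.71. HOPS and CORVET, tethers of endosomes and lysosomes, lay near the background by array but not by probe means. The median of their 6 probes minus that of single-symbol probes lay between 0.04 and 0.08 on the 5 arrays. Of the 6 means 2 were negative (33.3%, against 65.8%), and the median of these means was 0.14, against -0.22 for single-symbol probes. Vps13c, a lipid transfer protein, had -1.03 ± 3.48 and 0.56 ± 0.78 (SD, n = 4 each) on its probes, the first with -5.86 on array 2.

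Tethers of the secretory path, 8 probes, had 3 negative means (37.5%, against 65.8% of single-symbol probes). An unadjusted p under 0.05 in limma was found for 0 of them (0%, against 9.53%), and so few probes make these shares uncertain. The median minus that of single-symbol probes was -0.29, 0.00, -0.11, 0.47 and 0.32 on arrays 1 to 5, so the side differed between arrays. Exoc6b, a subunit of the exocyst that docks carriers at the plasma membrane, had -1.10, 4.03, 1.72, 0.32 and 2.57 by the probe present on every array. The other probe, absent from array 5, read -0.10, 0.05, 1.50 and 2.43. Both were negative on array 1 and positive on the others, with means of 1.51 ± 1.98 (n = 5) and 0.97 ± 1.21 (SD, n = 4), and neither reached an unadjusted p under 0.05. Exoc4 had -0.02 ± 0.65 and Trappc6a of the TRAPP tether -0.56 ± 0.87 (SD, n = 5 each).

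**Figure D3:**
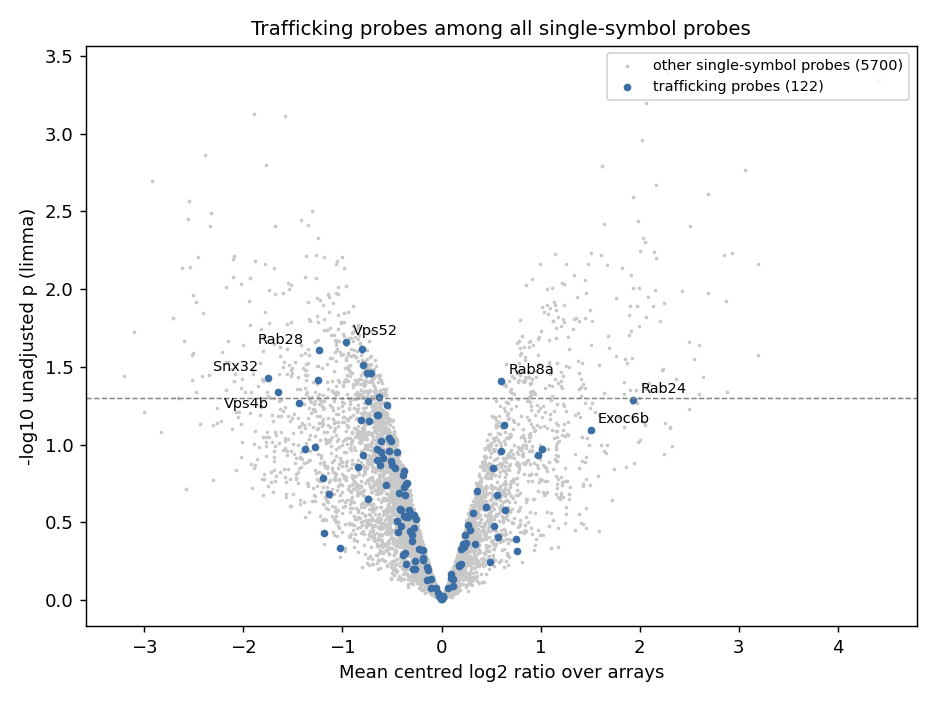
Mean centred log2 ratio over arrays (horizontal) against -log10 of the unadjusted limma p (vertical) for 5822 single-symbol probes, with the 122 trafficking probes in blue and a dashed line at an unadjusted p of 0.05. Of the trafficking probes, 10 lie above the line on the left and 1, Rab8a, on the right, and other genes reach smaller p-values on both sides.

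Some genes had a pair of tested probes. Of 25 trafficking genes with a pair, 15 had means of the same sign (60%), 14 both negative and 1, Exoc6b, both positive. Among all 989 single-symbol genes with more than 1 tested probe, 539 had all means on one side (54.5%). Since most single-symbol means were negative, probes can share a sign without agreeing further, and these shares by themselves show little agreement between probes of a gene. The median gap between probe means was 0.54 for trafficking genes and 0.59 for all. The pairs with the smallest gaps were Sar1b at 0.02, Tmed2 at 0.05, Ap3b2 at 0.10 and Rab7 at 0.12. The largest gaps were those of Vps13c at 1.58, Ap2a2 at 1.56, Sec24b at 1.46 and Sec16a at 1.34. Of the genes with a probe under an unadjusted p of 0.05, Rab28, Ap3b2 and Vps52 had another probe with a mean on the same side, that of Sec14l1 lay at -0.0045, and that of Sec24b on the other side. For Rab8a, Ap1b1, Cope, Vps26b, Snx32 and Vps4b no other probe was tested.

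**Figure D4:**
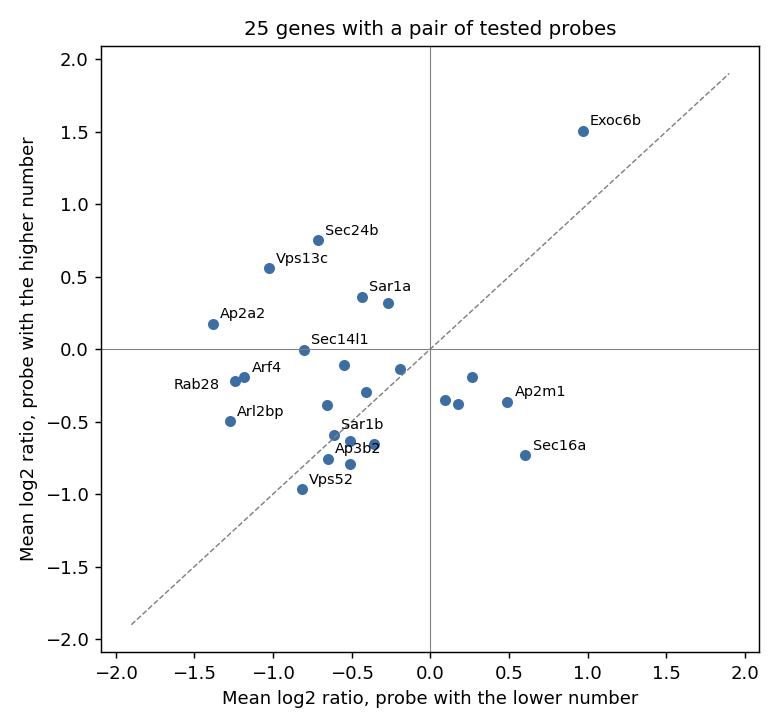
Mean centred log2 ratio of the lower-numbered probe (horizontal) against the higher-numbered probe (vertical) of 25 trafficking genes with a pair of tested probes; the dashed line marks equal means. Of the points, 14 have both means negative, 1 (Exoc6b) has both positive, and 10 have means of opposite sign.

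Outside the symbol rule, 111 tested probes of 89 genes that regulate or complete the same traffic were followed as a list. Negative means numbered 77 of 111 (69.4%, against 65.8% of single-symbol probes). An unadjusted p under 0.05 was found for 7 probes on the negative side and 1 on the positive side, together 7.21% against 9.53%, so these counts lay near the background. The median minus that of single-symbol probes was -0.11, 0.06, -0.34, -0.08 and 0.07 on arrays 1 to 5. Among SNAREs, which fuse vesicles with their target, and their partners, 18 of 24 means were negative (75%), although their median lay above that of single-symbol probes on 4 of 5 arrays, by 0.22, 0.17, -0.43, 0.31 and 0.50 in array order. Named members were Napa at -0.75 ± 0.43, Stx8 at -0.68 ± 0.47 and Vamp3 at 1.00 ± 0.66. Among Arf regulators 9 of 13 were, with Cyth1 at -1.68 ± 0.90, Agap1 at -0.63 ± 0.27 and Cyth2 at 0.55 ± 0.20. All 6 probes of Rab regulators had negative means, with Rabggta, a subunit of the enzyme that adds the lipid anchor to Rabs, at -0.65 ± 0.62. Among genes of transport to the cilium and outer segment 12 of 17 were negative, with Ift122 at -0.76 ± 0.56, Ift57 at -0.76 ± 0.91 and Bbs4 at -0.82 ± 1.03. Of cargo receptors and other genes of exit from the endoplasmic reticulum 11 of 18 were, with Ergic2 at -2.71 ± 2.29 and Ergic3 at -0.60 ± 0.36. Of endosome and ESCRT genes 12 of 17 were, with Gga3 at -0.81 ± 0.87, of Golgi tethers 4 of 5, with Gorasp2 at -0.55 ± 0.41, and of endocytosis genes 5 of 11, with Bin1 at -0.97 ± 0.81 (SD, n = 5 for each gene named). None of the 111 passed after adjustment (0 by limma).

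The remaining 35 trafficking spots were measured on fewer than 4 arrays and not tested, 21 on 3 arrays, 12 on 2, 1 on 1 and 1 on none. They left 21 of the 118 genes without a tested probe. Among these was Arl3, the GTPase that unloads lipid-anchored proteins in photoreceptors, with ratios of -0.88 and 0.02 on arrays 3 and 5. A Rab5b spot had 4.36, -2.13 and 2.17 on arrays 1, 3 and 5, and Rab23, an inhibitor of Hedgehog signalling at the cilium, 0.92, 2.78 and 0.41 on arrays 1 to 3. Snx27, a partner of retromer, had 0.85, -2.77 and -0.28 on arrays 1, 3 and 5, and Ap1m1 had 1.70, 0.97 and -0.25 on arrays 1, 3 and 4. Of the spots named here, all but Rab23 changed side between arrays. The other genes without a tested probe were Arfgap1, Arfgap2, Exoc3, Exoc6, Rab11fip4, Rab2a, Rab43, Rab6b, Sec11a, Snx25, Tmed4, Vps28, Vps37b, Vps39, Vps53 and Vps72, the last a chromatin protein that shares the prefix. Among them Arfgap1, Rab2a, Vps28, Vps37b and Vps72 kept the same side on the arrays that measured them. So did a Vps53 spot and the other Rab5b spot, while the rest that were measured changed side.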

How the data were processed

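GenePix read the spots at 635 and 532 nm, subtracting each spot's local background and applying no normalization, per the labels. The values deposited by the authors are taken as log2 ratios, a scale that the filler value below also fits. The sources used here do not say which dye each RNA carried, whether dyes were swapped, or why some cells are empty. Deposited medians were -0.755, -0.025, -0.715, -0.0575 and -0.742 on arrays 1 to 5. Cells at 16.61, the log2 of 100000, were taken as a filler and set to missing, and usable ratios then covered 71.8% to 75.9% of spots. Arrays, numbered in order of deposition, were centred on their medians. Control spots (192, of ACTB) took no part as members or single-symbol probes.

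Probes on at least 4 of 5 arrays were tested against 0 with limma 3.58.1 (R 4.3.3), with Benjamini-Hochberg adjustment over 10036 probes at 0.05. The number of arrays limits the precision. The test was tested on simulated data with 200 changed probes. Symbols came from the platform annotation, and all 157 spots had a RefSeq entry with the same symbol.

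Members and lists were chosen with earlier results of these data known. Genes named were 41 fixed by role with a tested probe, the 3 smallest p of each role, the 4 largest and 4 smallest gaps between probes of a gene, and the 5 highest and 5 lowest means, 75 probes of 56 genes in all. The wider lists and marker lists are named by up to 3 smallest p. Rab2b, Rab8b, Sec14l2, Vps16, Vps33a, Vps41, Snx33, Vps54, Copz1, Ap3s2, Ap3m2, the genes without a tested probe and the groups by complex were chosen after their values were seen. Alternatives were other centring, scaling, filters, tests and weights, focus position as a block, and leaving out arrays.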

Additional observations from a re-analysis of the deposited data

Results flagged for a closer look

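In 2 of 82 results, one array lay apart from the remaining ones; chance gives about 1 in 20, or 4.1 here. For Copb2, a COPI subunit, array 3 read -1.69 (log2) while the rest spanned -0.36 to 0.14. For the Sar1a probe that was positive throughout, array 4 read 0.99 while the rest spanned 0.17 to 0.24.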

How the results depend on the processing

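Each ratio compares the RNA of both genotypes within an array, so the test against 0 was already paired by array. All 5 arrays form 1 group of such ratios. In each of the 19 alternatives fitted, 0 of all probes and 0 trafficking probes passed after adjustment. The count of trafficking probes at an unadjusted p under 0.05 was 11 of 122. It was 25 with focus position as a random block (20.5%, against 20.8% of all probes) and 26 with no centring (21.3%, against 21.0%). Both rises were thus shared by all probes. The correlation within focus position was negative, at -0.20 over probes on all 5 arrays. After quantile normalization the count was 22 of 101 (21.8%, against 17.8%). Within focus position 0 it was 2 of 115 (1.74%, against 7.01%), and within focus position 10 it was 1 of 142 (0.704%, against 8.03%). Without arrays 1 and 3, chosen after seeing the data, it was 6 of 139 (4.32%, against 8.51%). With 1 array left out it was 3 to 8 of 127 to 133 (2.26% to 6.15%, against 8.64% to 11.4%). These counts were 4 without array 1, 8 without array 2, 4 without array 3, 3 without array 4 and 7 without array 5. With fewer arrays the trafficking share was thus below that of all probes, as it was in the fit used throughout, at 9.02% against 11.4%. Some other alternatives with all 5 arrays put it above. Among them were only probes on all 5 arrays, with 16 of 101 (15.8%, against 12.9%), and a plain one-sample test, with 15 of 122 (12.3%, against 10.3%). Others, such as array weights (9.02%, against 11.6%), left it below. The side of this difference thus depended on the setting. Over all probes the count at an unadjusted p under 0.05, 1146, was 2092 with focus position as a block, 2107 with no centring and 712 within focus position 0. Keeping Rab30 to Rab39 or using 1 value per gene left the median within the spread between arrays. The causes were not tested. The ratios carry no brightness, so the precision of dim spots is unknown. Relative to the median of all tested probes, 51 of the 75 named probes kept their side in all alternatives run on them, and 24 changed it, as follows (probe numbers in brackets, log2). With array weights Tmed2 (12361) at -0.031, Sec63 (13626) at 0.12, Exoc4 (15730) at -0.0060 and Rab28 (16999) at 0.066. With focus position as a random block Copg1 (17053) at -0.11. With only probes on all 5 arrays Tmed2 (7971) at 0.0070 and Arf4 (12151) at 0.0056. With probes on at least 3 arrays Tmed2 (12361) at -0.060 and Copg1 (17053) at -0.030. After quantile normalization Tmed2 (7971) at 0.019, Arf4 (12151) at 0.017 and Rab28 (16999) at 0.046. With arrays scaled to equal spread Tmed2 (7971) at 0.011, Sec63 (13626) at 0.064 and Rab28 (16999) at 0.032. Within focus position 0 Trappc6a (3444) at 0.21, Copb2 (4240) at 0.0030, Sec24c (5130) at 0.14, Cltb (5674) at 0.095, Sar1a (7094) at 0.62, Ap3d1 (8211) at 0.11, Rab7 (10537) at 0.043, Tmed2 (12361) at -0.19, Sec63 (13626) at 0.035, Sec24b (14852) at -0.13 and Rab28 (16999) at 0.22. Within focus position 10 Rab7 (5213) at 0.31, Arf3 (6277) at -0.12, Ap2m1 (9893) at -0.026, Arf4 (12151) at 0.023 and Copg1 (17053) at -0.55. Without arrays 1 and 3 Snx2 (2790) at 0.23, Trappc6a (3444) at 0.059, Copb2 (4240) at 0.033, Sec24c (5130) at 0.24, Cltb (5674) at 0.054, Arf4 (6530) at 0.93, Sar1a (7094) at 0.29, Tmed2 (12361) at -0.052, Sec63 (13626) at 0.45, Sec24b (14852) at -0.085, Exoc4 (15730) at -0.21 and Rab28 (16999) at 0.20. With 1 array left out the ranges of those that changed side were Arf4 (12151) from -0.21 to 0.025, Arf4 (6530) from -1.89 to 0.46, Arl2 (11331) from -0.66 to 0.33, Copg1 (17053) from -0.51 to 0.40, Exoc4 (15730) from -0.13 to 0.26, Rab28 (16999) from -0.22 to 0.066, Rab7 (5213) from -0.51 to 0.066, Sec24b (14852) from -0.12 to 1.42, Sec63 (13626) from -0.66 to 0.46, Tmed10 (16698) from -0.75 to 0.17, Tmed2 (12361) from -0.12 to 0.17, Tmed2 (7971) from -0.21 to 0.10, Tmed7 (12861) from -0.26 to 1.63 and Vps13c (9862) from -2.07 to 0.70.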
